A study of Mus musculus with 2 samples.

Results

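Cytochrome P450 genes encode haem enzymes that insert an oxygen atom into small lipophilic molecules such as drugs, fatty acids and steroids. In the kidney they are best known from the tubule, where family 2 and family 4 enzymes turn arachidonic acid into epoxides and hydroxylated products that act on vessel tone and salt transport. Families 7 and above hold most of the enzymes that make or break down steroids, bile acids and oxysterols. Families 1 and 3 are known for oxidising foreign compounds.

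The genes described here are those whose probe sets carry a single gene symbol that starts with Cyp and a digit, with Cyp24a1, Cyp27b1, Cyp26b1, Cyp51 and pseudogene symbols marked -ps left out. There were 68 such genes among 18193 genes with a symbol of their own, covered by 90 probe sets. Each gene was read from its brightest probe set. One of the 68, Cyp2d13, is listed by RefSeq as a transcribed pseudogene.

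The RNA came from isolated glomeruli, the filtering units of the kidney, of male KK/Ta mice aged 20 weeks. KK/Ta is an inbred strain prone to obesity and diabetes, so both groups share that background. The HFD group had received a high-fat diet and the Chow group a normal fat diet, and each diet is represented by 1 Affymetrix array. The design text mentions 3 mice, and pooling of their RNA is not stated. Without replicates there is no test between the diets, and each difference describes these RNA preparations.

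Signals are the deposited linear intensities. Differences are HFD minus Chow on the log2 scale, after subtracting each array's median probe set value, a step that added 0.083 to every difference. That median also served as a floor, at a signal of 42.3 in HFD and 44.9 in Chow, under which a signal was not read as a level. Where only 1 of the arrays exceeded the floor, the difference is a lower limit and is given with the words at least. Signals of different probe sets cannot be ranked as transcript amounts, so levels are compared between arrays and not between genes.

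Markers of glomerular cells were above the floor on both arrays. As 62.4% of all genes passed the floor on at least 1 array, passing it does not show where the RNA came from. All 15 measured podocyte markers were above the floor, among them Nphs1, the nephrin of the slit diaphragm (5421 in HFD and 5427 in Chow). All 15 endothelial and all 8 mesangial markers were above the floor as well. Tubule markers were also present, with signal over the floor for 24 of 24 proximal tubule markers. Control probe sets for Gapdh differed by 0.20 to 0.28, and the beta-actin controls by 0.14 to 0.28, all higher in HFD. Differences of that size are no larger than those of these controls. They read mouse transcripts, so their differences may hold real ones and set no limit of technical noise.

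Of the 68 P450 genes, 23 exceeded the floor, 21 of them on both arrays and 2 on a single array, and 45 were under it on both. That is 33.8% of the P450 genes, against 62.4% of all genes. Family 1 had 1 of 3 genes above the floor, family 2 had 10 of 35, family 3 had 0 of 5 and family 4 had 7 of 12. The steroid families (7, 8, 11, 17, 21, 27, 39 and 46) had 4 of 11, and families 20 and 26 had 1 of 2. Family 4 thus had the highest share of the families with more than 3 genes, and family 3 was not detectable at this floor.

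**Figure D1:**
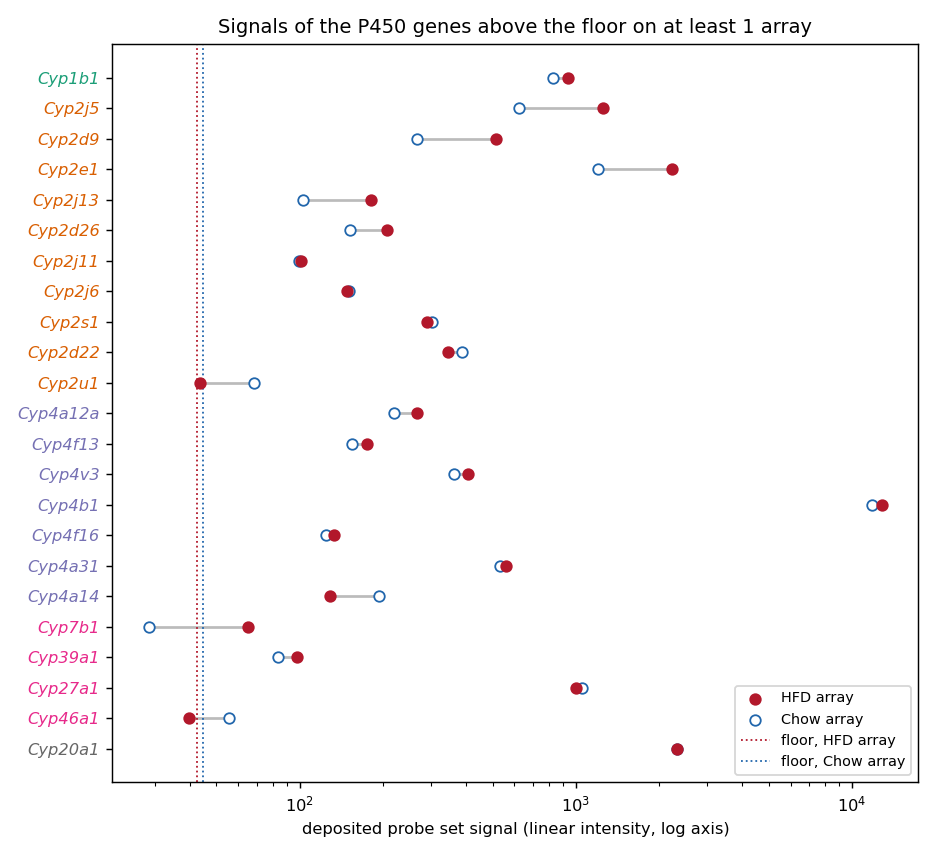
Deposited probe set signal (linear intensity on a log axis) of the 23 P450 genes above the floor on at least 1 array, with a filled point for the HFD array and an open point for the Chow array (1 array per diet). Gene names are coloured by family, in the order family 1, family 2, family 4, steroid families and other families, and dotted lines mark the floor of each array. Cyp2j5, Cyp2d9, Cyp2e1, Cyp2j13 and Cyp7b1 show the widest gaps with the HFD point to the right, whereas Cyp46a1, Cyp2u1 and Cyp4a14 have the HFD point clearly to the left, and Cyp2d22, Cyp27a1, Cyp2s1 and Cyp2j6 have it slightly to the left.

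Against that background, 2 of the 23 genes were at least 2-fold higher in HFD, Cyp2j5 and Cyp2d9, beside 0.722% of all genes above the floor. At least 1.5-fold higher were 5 of 23, beside 4.21% of all genes. No P450 gene was 1.5-fold lower in HFD, beside 1.41% of all genes, nor 2-fold lower, beside 0.159%. By any amount 19 of 23 were higher, beside 62.2% of all genes, and 4 were lower, beside 37.8%. Their median difference was 0.21 (1.15-fold), beside 0.064 for all genes above the floor. Without centring, Cyp2j6 (-0.021), Cyp2s1 (-0.064) and Cyp27a1 (-0.073) were lower in HFD, so the count of 19 depends on that step. The median of all genes above the floor was then -0.019. The genes at least 1.5-fold higher were Cyp2j5, Cyp2d9, Cyp2e1 and Cyp2j13 of family 2, and Cyp7b1 of the steroid families as a bound.

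**Figure D2:**
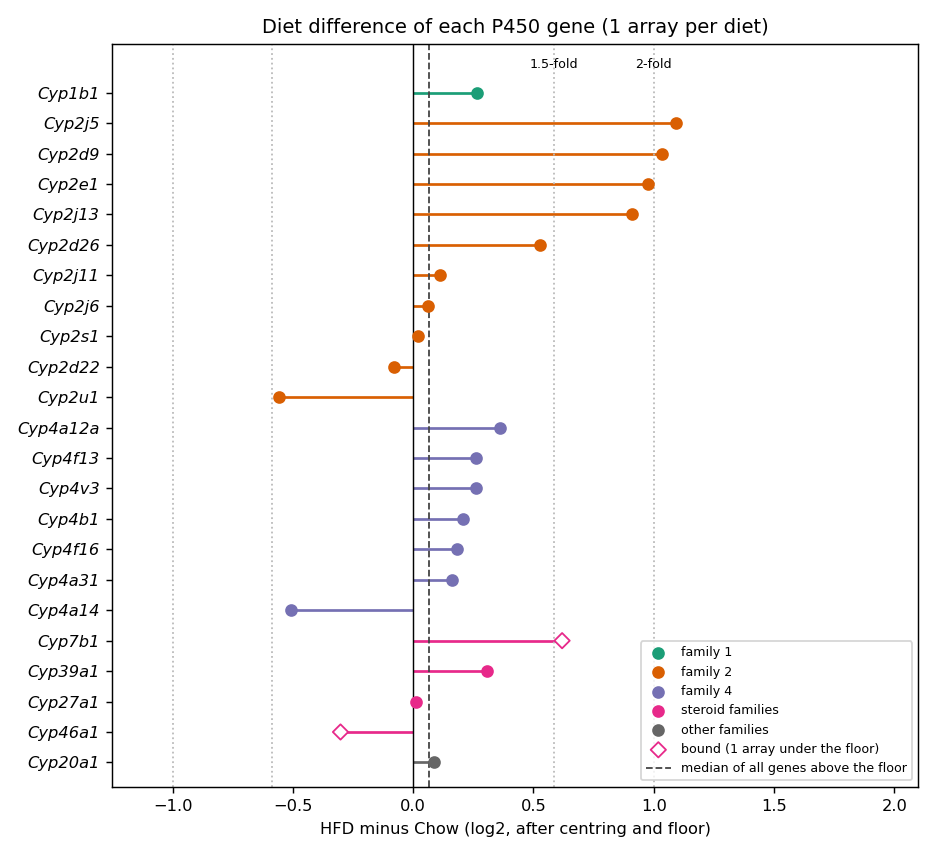
HFD minus Chow difference (log2, after centring and floor) of the 23 P450 genes, 1 line per gene from 0 to its value, coloured by family, with open diamonds for the bounds of Cyp7b1 and Cyp46a1. Dotted lines mark 1.5-fold and 2-fold in each direction and the dashed line the median of all genes above the floor, 0.064. Leaving the bounds aside, the 4 largest positive values, 0.91 to 1.09, all belong to family 2. The family 4 values other than Cyp4a14 lie between 0.16 and 0.36.

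Family 2 had the widest spread, with differences from -0.56 to 1.09 and a median of 0.32 over its 10 genes above the floor. Cyp2j5, an arachidonate epoxygenase abundant in the proximal tubule of mice, had a signal of 1258 in HFD and 626 in Chow. The difference was 1.09, or 2.13-fold higher in HFD. A second, dimmer Cyp2j5 probe set also stood higher, but by 0.41 only (73.7 in HFD and 58.8 in Chow). Cyp2j5 was therefore 2-fold higher by its brighter probe set alone.

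Cyp2d9, a testosterone hydroxylase best known from male mouse liver, had a signal of 514 in HFD and 266 in Chow. It was 2.05-fold higher in HFD, a difference of 1.03 that came to 0.95 without centring and to 0.99 with quantile normalization or a loess correction, just under 2-fold. Its only probe set is of a kind that may match several transcripts. The Cyp2d genes are close copies of each other, and whether the signal holds RNA of a neighbour was not tested. Cyp2e1, which oxidises ethanol, ketone bodies and small solvents, had 2239 in HFD and 1208 in Chow, 1.96-fold higher in HFD. Cyp2j13, a relative of Cyp2j5, had 182 in HFD and 103 in Chow, 1.88-fold higher in HFD.

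The spread of differences among all genes of like signal gives a scale for these values, although it holds technical noise and real differences together. As a scaled median absolute deviation it was 0.18 for genes as bright as Cyp2j5, 0.21 for those as bright as Cyp2d9, 0.17 for those as bright as Cyp2e1 and 0.32 for those as bright as Cyp2j13. The differences of these genes were 1.09, 1.03, 0.97 and 0.91, and as genes grouped for being at least 1.5-fold higher they had to exceed it. This spread is no replicate error, and how far mice of 1 diet differ is unknown.

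Of the other family 2 genes, Cyp2d26 stood higher in HFD and Cyp2u1 lower, and Cyp2j11, Cyp2j6, Cyp2s1 and Cyp2d22 differed by less than the spread of genes of like signal. Cyp2d26 had 207 in HFD and 152 in Chow, a difference of 0.53 (1.44-fold). Cyp2j11 had 101 in HFD and 99.1 in Chow (0.11), and Cyp2j6 had 148 in HFD and 150.5 in Chow (0.062). Both were within the spread of genes of like signal, and Cyp2j6 turned negative without centring. A second Cyp2j6 probe set differed by 0.34 (73.5 in HFD and 61.5 in Chow).

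Cyp2s1, an enzyme of surface epithelia, had 289 in HFD and 302 in Chow, a difference of 0.019 after centring that turned negative without centring, with quantile normalization and with a loess correction. Cyp2d22 had 345 in HFD and 387 in Chow (-0.080), and its second probe set was lower too (-0.27). Cyp2u1, a hydroxylase of long-chain fatty acids, was lower in HFD by 1.47-fold, with 43.8 in HFD and 68.3 in Chow. Its HFD signal lay just above the floor, where the spread of all genes was widest at 0.37. Cyp2j9 lay just under the floor on the HFD array, with 40.9 in HFD and 25.1 in Chow, and has no difference here.

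The Cyp2j genes are neighbours on chromosome 4 in RefSeq (assembly GRCm38.p6), in the order Cyp2j13, Cyp2j11, Cyp2j6, Cyp2j9 and Cyp2j5 for those measured here. The 2 genes with the larger differences, 0.91 and 1.09, stand at the ends of that row, and Cyp2j11 and Cyp2j6, with 0.11 and 0.062, lie between them. In the Cyp2d row on chromosome 15, Cyp2d9 (1.03) lies between Cyp2d10 and Cyp2d12, whose probe sets were both under the floor, so no adjacent gene has a difference to set beside it. Cyp2j9, next to Cyp2j5, has none either.

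The promoters of the 4 family 2 genes with the largest differences are shown beside those of Cyp2j6 and Cyp2j11, the neighbours that differed little. Each is the 200 bases before the annotated start, 5′ to 3′ on the gene's strand, from RefSeq promoters of build GRCm38.p6. Capitals mark matches to 4 motifs searched on both strands: TATAAA, the letters of the TATA box; AGGTCA, the half-site of nuclear receptors; GCGTG, the core of the aryl hydrocarbon receptor element; and GTTAAT, the half-site of the kidney and liver factor HNF1.
Cyp2j5, chr4:96664120-96664319, minus strand: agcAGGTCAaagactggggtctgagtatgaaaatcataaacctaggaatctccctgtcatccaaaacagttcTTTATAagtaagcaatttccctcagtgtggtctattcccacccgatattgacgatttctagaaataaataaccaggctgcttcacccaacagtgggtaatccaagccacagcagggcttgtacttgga
Cyp2j13, chr4:96077541-96077740, minus strand: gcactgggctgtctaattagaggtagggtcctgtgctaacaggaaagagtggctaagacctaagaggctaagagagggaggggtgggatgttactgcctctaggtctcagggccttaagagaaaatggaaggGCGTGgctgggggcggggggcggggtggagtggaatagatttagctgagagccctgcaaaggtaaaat
Cyp2j6, chr4:96553652-96553851, minus strand: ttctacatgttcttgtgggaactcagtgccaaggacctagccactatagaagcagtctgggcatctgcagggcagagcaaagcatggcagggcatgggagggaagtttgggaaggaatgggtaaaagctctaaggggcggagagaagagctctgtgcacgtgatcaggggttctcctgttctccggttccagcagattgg
Cyp2j11, chr4:96348681-96348880, minus strand: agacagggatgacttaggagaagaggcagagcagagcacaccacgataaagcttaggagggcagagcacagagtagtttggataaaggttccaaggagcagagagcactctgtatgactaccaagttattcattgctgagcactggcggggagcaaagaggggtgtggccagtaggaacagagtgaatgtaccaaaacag
Cyp2d9, chr15:82452177-82452376, plus strand: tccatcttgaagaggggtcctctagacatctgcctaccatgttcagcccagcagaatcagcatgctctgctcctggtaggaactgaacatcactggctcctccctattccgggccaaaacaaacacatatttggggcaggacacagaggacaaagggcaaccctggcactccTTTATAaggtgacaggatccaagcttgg
Cyp2e1, chr7:140763619-140763818, plus strand: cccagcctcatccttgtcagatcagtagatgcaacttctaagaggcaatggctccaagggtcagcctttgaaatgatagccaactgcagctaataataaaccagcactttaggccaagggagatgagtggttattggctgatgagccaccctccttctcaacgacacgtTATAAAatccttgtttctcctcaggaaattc

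The TATAAA letters began 31 bases before the start of Cyp2e1 on its own strand, and 28 bases before that of Cyp2d9 and 128 before that of Cyp2j5 on the opposite strand. Cyp2j5 also held AGGTCA, 197 bases before its start, and Cyp2j13 held GCGTG, 68 bases before its start. Cyp2j6 and Cyp2j11 held none of the 4 motifs. Promoters were at hand for 16 of the 23 genes above the floor, and of those 4 held TATAAA, beside 10.6% of 27025 promoters. AGGTCA was in 1 of 16 (11.2% of all), GCGTG in 5 of 16 (24.8% of all) and GTTAAT in 1 of 16 (5.09% of all). The other genes with GCGTG were Cyp1b1 (0.26), Cyp4v3 (0.26), Cyp20a1 (0.087) and Cyp46a1 (at least 1.23-fold lower in HFD). The other gene with TATAAA was Cyp2d26 (0.53), which also held the GTTAAT match. None of these was called at 1.5-fold. The promoters shown were chosen by the differences of their genes. A match is a stretch of letters and is not a measured binding site.

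The remaining 25 family 2 genes were under the floor on both arrays, with signals of at most 40.9 in HFD and 31.7 in Chow. They include all 11 Cyp2c genes and all 4 Cyp2b genes. Cyp2c23, named for an arachidonate epoxygenase described in rat kidney, had 6.65 in HFD and 8.47 in Chow. The Cyp2c genes measured were Cyp2c23, Cyp2c29, Cyp2c37, Cyp2c38, Cyp2c39, Cyp2c50, Cyp2c54, Cyp2c55, Cyp2c65, Cyp2c68 and Cyp2c70, and the Cyp2b genes Cyp2b9, Cyp2b10, Cyp2b13 and Cyp2b19. The others were Cyp2a12, Cyp2d10, Cyp2d12, Cyp2d13, Cyp2d34, Cyp2d40, Cyp2f2, Cyp2g1, Cyp2j9 and Cyp2r1, the last a vitamin D hydroxylase of the liver.

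Family 4, whose enzymes hydroxylate the far end of fatty acids and eicosanoids, had a narrow set of differences with 1 exception. The median over 7 genes above the floor was 0.21. Of these 6 were higher in HFD, beside 62.2% of all genes, and none by 1.5-fold, beside 4.21%. Apart from Cyp4a12a, the higher values, 0.16 to 0.26, were no larger than the highest difference of the Gapdh and beta-actin controls, 0.28. Against the spread of genes of like signal, Cyp4b1 (0.21 beside 0.14) and Cyp4v3 (0.26 beside 0.21) exceeded it, as did Cyp4a12a (0.36 beside 0.22). Cyp4f13, Cyp4f16 and Cyp4a31 did not. Cyp4b1, an enzyme of lung and kidney that activates some plant toxins, had 12847 in HFD and 11809 in Chow (0.21, or 1.15-fold). Cyp4a12a, which makes omega-hydroxylated arachidonate in the male mouse kidney, had 266 in HFD and 219.5 in Chow (0.36, or 1.29-fold).

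Cyp4a14, a known target of the fatty acid receptor PPAR-alpha, was the 1 family 4 gene lower in HFD. It had 129 in HFD and 194 in Chow, 1.42-fold lower in HFD. Cyp4a31, from the same gene row, had 559 in HFD and 530.2 in Chow (0.16), and a dimmer probe set differed in the opposite direction (-0.11). The 3 Cyp4a genes thus did not move together: Cyp4a12a was slightly higher and Cyp4a14 lower. Cyp4a31 was within the spread of genes of like signal, 0.195.

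Cyp4v3, the mouse counterpart of the human fatty acid hydroxylase gene of Bietti corneoretinal dystrophy, had 408 in HFD and 361 in Chow (0.26). Its second probe set differed by 0.16 in the same direction. Cyp4f13 had 176 in HFD and 155 in Chow (0.26), and Cyp4f16 had 133 in HFD and 124 in Chow (0.18). These are members of the Cyp4f subfamily, known for inactivating leukotrienes. Cyp4f14, Cyp4f15, Cyp4f18, Cyp4f39 and Cyp4x1 were under the floor on both arrays.

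In the steroid families the genes above the floor were those of oxysterol metabolism. Cyp7b1, an oxysterol hydroxylase of the alternative bile acid pathway, was above the floor in HFD only, with 65.0 in HFD and 28.5 in Chow, at least 1.54-fold higher in HFD. Its 2 further probe sets were under the floor on both arrays. Cyp27a1, the mitochondrial sterol hydroxylase, had 999 in HFD and 1052 in Chow, a difference of 0.010 after centring, which was negative without centring, with quantile normalization and with a loess correction.

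Cyp39a1, another oxysterol hydroxylase, had 97.5 in HFD and 83.6 in Chow (0.31), within the spread of 0.37 for genes of like signal. Cyp46a1, the cholesterol hydroxylase known from neurons, was above the floor in Chow only, with 39.7 in HFD and 55.3 in Chow, at least 1.23-fold lower in HFD. The median over the 4 genes was 0.16.

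The 5 genes of adrenal and gonadal steroid synthesis, Cyp11a1, Cyp11b1, Cyp11b2, Cyp17a1 and Cyp21a1, were under the floor on both arrays, with signals of at most 13.5 in HFD and 16.9 in Chow. The adrenal cortex markers Star, Nr5a1, Mc2r, Hsd3b1, Mrap and Nr0b1 were under it too. The 2 members of that list above the floor, Scarb1 and Fdx1, are also expressed widely. Of the adrenal medulla markers, Pnmt, which makes adrenaline, had 31.1 in HFD and 201 in Chow, whereas Th and Dbh were under the floor on both arrays. The other 3 medulla markers above the floor did not share the lower value in HFD: Npy differed by 0.57, Ddc by 0.53 and Slc18a1 by -0.0036. Cyp7a1 and Cyp8b1, which direct bile acid synthesis in the liver, were also under the floor on both arrays, as were 9 of 10 hepatocyte markers.

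Families 1, 3, 20 and 26 added 2 genes above the floor. Cyp1b1, an aryl hydrocarbon receptor target that is also expressed without inducer in stromal cells, had 939 in HFD and 829 in Chow (0.26). A dimmer probe set differed in the opposite direction, with 207 in HFD and 237 in Chow (-0.11). Cyp20a1, whose substrate is not known, had 2325 in HFD and 2319.6 in Chow (0.087). Cyp1a1 and Cyp1a2, the inducible targets of that receptor, were under the floor on both arrays, as were Cyp3a11, Cyp3a13, Cyp3a16, Cyp3a25, Cyp3a44 and the retinoic acid hydroxylase gene Cyp26a1.

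Further probe sets gave a partial check within the same RNA. Of 14 further probe sets of the 23 genes, 8 were above the floor, each of a different gene, and 6 of the 8 went the same way as the brightest probe set. The 2 that did not belonged to Cyp1b1 and Cyp4a31. They read the same RNA, so this compares measurements and not animals.

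**Figure D3:**
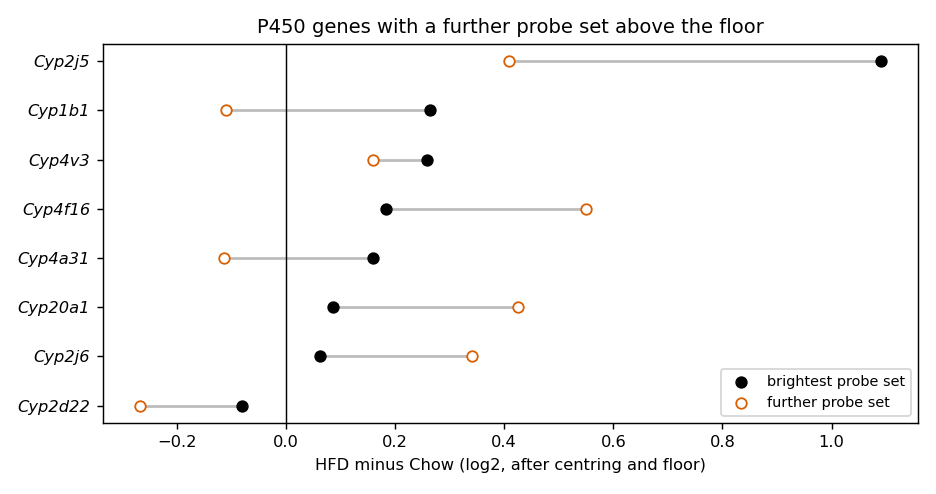
HFD minus Chow difference (log2, after centring and floor) in the brightest probe set (filled) and the further probe set (open) of the 8 P450 genes with a further probe set above the floor. The further set of Cyp4f16 is a bound, since its Chow signal was under the floor. Cyp2j5 has 1.09 in its brightest set and 0.41 in its further set, and the points of Cyp1b1 and Cyp4a31 lie on opposite sides of 0.

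Genes that serve the P450 enzymes were set beside them. Of 16 listed redox partners and haem genes 12 were measured, without the P450 reductase gene Por, and 11 were above the floor. None differed by 1.5-fold, beside 4.21% of all genes higher and 1.41% lower (median 0.093). With so few genes a count of 0 is near those shares. Cyb5a, the cytochrome that donates electrons to many P450 enzymes, had 4190 in HFD and 4649 in Chow (-0.067). Fdx1, the ferredoxin of mitochondrial P450 enzymes, had 1233 in HFD and 1414 in Chow (-0.11). The largest value was that of Fech, the last enzyme of haem synthesis, with 1537 in HFD and 1275 in Chow (0.35).

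Of 15 measured nuclear receptors and sensors 10 were above the floor, 9 were higher in HFD, beside 62.2% of all genes, and none by 1.5-fold, beside 4.21% (median 0.28). Hnf4a, a factor of hepatocytes and proximal tubule cells, had 488 in HFD and 359 in Chow (0.53). The receptors Nr1i2 and Nr1i3, known as inducers of family 2 and family 3 genes, were under the floor on both arrays. Ahr had 1177 in HFD and 1184 in Chow (0.076), and Ppara, the receptor known to drive Cyp4a genes, had 204 in HFD and 169 in Chow (0.36).

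Among enzymes that release arachidonate or act on its products, 4 of 10 genes over the floor had a value at least 1.5-fold higher in HFD, beside 4.21% of all genes, and none was 1.5-fold lower, beside 1.41% (median 0.31). Alox12, a lipoxygenase, had 580.4 in HFD and 305 in Chow, 2.02-fold higher in HFD. Ptgs2, the inducible cyclooxygenase, was 1.88-fold higher, Tbxas1, the thromboxane synthase, 1.57-fold, and Pla2g4a, the cytosolic phospholipase, 1.52-fold. Tbxas1 and Ptgis (-0.017) of this list encode P450 enzymes too, but their symbols do not start with Cyp. They are therefore outside the P450 counts given here. The epoxide hydrolases that take the products of Cyp2j enzymes further differed less: Ephx1 had 7344 in HFD and 6411 in Chow (0.28), and Ephx2 had 424 in HFD and 357 in Chow (0.33).

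Of 32 conjugation and efflux genes over the floor, 6 stood at least 1.5-fold higher in HFD, beside 4.21% of all genes, and none was 1.5-fold lower, beside 1.41% (median 0.17). Abcb1a, a drug efflux pump, was 1.95-fold higher, Ugt3a2, a sugar transferase, 1.85-fold, Fmo2, a flavin monooxygenase, 1.79-fold, and Abcc2, an apical efflux pump, 1.59-fold. Of 12 steroid dehydrogenase and reductase genes above the floor 1 was 1.5-fold higher, beside 4.21% of all genes: Akr1c14, with 150 in HFD and 90.6 in Chow (1.75-fold). The median of that list was 0.22.

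Markers of tubule cells and of myeloid cells stood higher on the HFD array. Of 24 proximal tubule markers 22 were higher in HFD (62.2% of all genes), 10 by 1.5-fold (4.21% of all) and 3 by 2-fold (0.722% of all), with a median of 0.55. Their summed deposited signal, which is not centred, was 27392 in HFD and 20561 in Chow. Slc22a6, an organic anion transporter, was 2.32-fold higher and Napsa, an aspartic protease, 2.17-fold. In the list for the later tubule segments (loop of Henle, distal tubule, collecting duct) 12 of 14 over the floor were higher, 8 by 1.5-fold (median 0.62). The summed signal over 17 measured was 18718 in HFD and 16722 in Chow. Much of that sum was the 1 gene Wnk1, with 9215 in HFD and 9945 in Chow (-0.027). No marker of the proximal list was under the floor on both arrays.

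Of 19 macrophage and myeloid markers over the floor, 16 stood 1.5-fold or more higher in HFD, beside 4.21% of all genes (median 1.15), and the summed signal of all 20 was 9166 in HFD and 5188 in Chow. Podocyte markers had a median of -0.035 after centring, with a summed signal, not centred, of 92687 in HFD and 102262 in Chow. The P450 genes of family 2 with differences of 0.91 to 1.09 lie above the proximal tubule median of 0.55. They lie in the upper part of the range of those markers, -0.24 to 1.21. The ranges of the endothelial markers (-0.077 to 1.22, with 1 marker past 1.5-fold) and the myeloid markers (-0.16 to 1.96) hold them too. The 6 higher family 4 genes, at 0.16 to 0.36, lie below the proximal tubule median. The part of tubule and myeloid RNA in the P450 differences was not tested. In RNA of whole glomerular preparations, fewer cells of a type and less RNA per cell cannot be told apart.

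**Figure D4:**
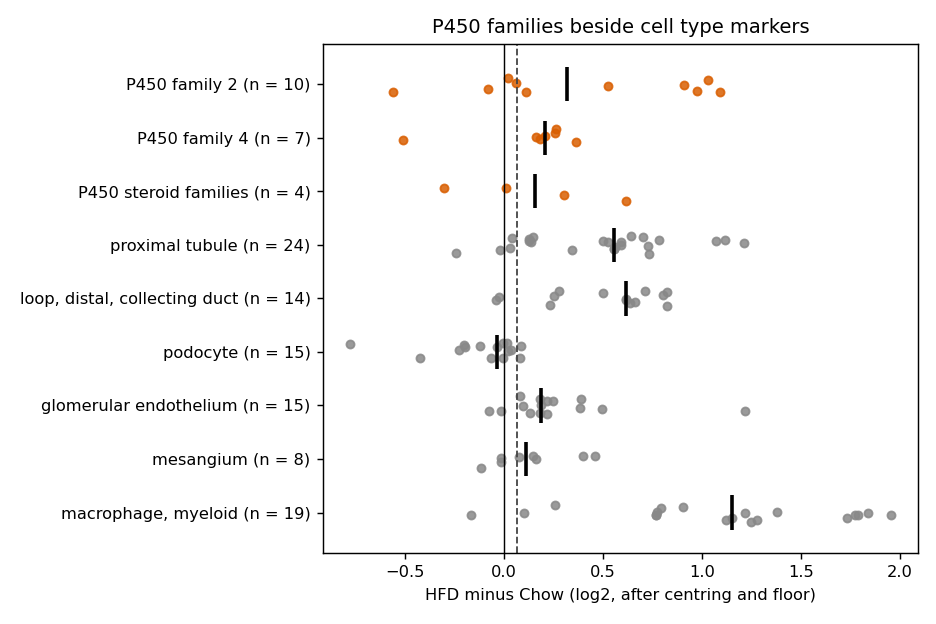
HFD minus Chow difference (log2, after centring and floor) of single genes above the floor, 1 point per gene, for 3 groups of P450 families (orange) and 6 lists of cell type markers (grey), with a black bar at each median and a dashed line at the median of all genes, 0.064. The highest family 2 points lie above the proximal tubule median of 0.55 and within the ranges of the proximal tubule, endothelial and myeloid markers. The family 4 median of 0.21 and the podocyte median of -0.035 lie below the proximal tubule median.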

How the data were processed

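RNA was purified on RNeasy columns and labelled with biotin by the two-cycle Affymetrix protocol, per the labels. The authors deposited 1 linear intensity per probe set and array, and these values ran from 0.0534 to 19489 in HFD and from 0.0539 to 19853 in Chow. GeneSpring 7.3.1 is the software the design text names. The labels state neither the probe summary nor the scaling, and no detection calls were used, so depth and detection limits are unknown. With 1 array per diet the number of arrays limits the precision.

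Of 45101 probe sets 64 controls were set aside. Values were put on the log2 scale, centred on each array's median and floored at its 50th percentile. Gene names came from GEO's platform annotation, in which 34945 probe sets carried 1 gene, 932 several and 9160 none here. All 68 members matched the RefSeq table of GRCm38.p6 by Entrez identifier, and 0 symbols changed. A gene was read from the probe set with the highest mean log2 signal. A gene was called by size, at 2-fold and 1.5-fold, with no p-value. The 9 alternative settings were no centring, quantile normalization, loess (span 0.3), removal of the floor or a floor at the 30th or the 70th percentile, a gene's median probe set value, only probe sets specific to 1 transcript by their identifier, and the 25th percentile added before log2. The procedure was tested on simulated data. Python 3.11.15, numpy 2.4.6, pandas 2.3.3 and statsmodels 0.14.6 were used.

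Every P450 gene of the symbol rule above the floor on at least 1 array was named with both signals, and genes under it were named without a difference. Of each of 5 pathway lists up to 4 members at least 1.5-fold apart were named, and of each of 10 cell type lists up to 2 members. Cyb5a, Fdx1, Fech, Hnf4a, Ahr, Ppara, Ephx1, Ephx2, Ptgis, Nr1i2, Nr1i3, Nphs1, Pnmt and other single markers were named for their roles after their values were seen. The P450 reductase gene Por was not analysed here. The members and lists were chosen with earlier results of these data known. The adipocyte list had 3 of 8 genes above the floor (median 0.16), the adrenal medulla list 4 of 9 (0.26), the adrenal cortex list 2 of 8 (-0.031), the hepatocyte list 1 of 10 (0.32), the endothelial list 15 of 15 (0.19) and the mesangial list 8 of 8 (0.11).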

Additional observations from a re-analysis of the deposited data

How the results depend on the processing

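No paired analysis was possible because each diet has 1 array and no replicate could be left out. The P450 median of 0.21 stayed positive under every alternative (0.12 to 0.21), and 0 genes were 2-fold lower under any. Genes above the floor numbered 42 with the floor at the 30th percentile and 13 at the 70th. Genes 2-fold higher numbered 1 without centring, with quantile normalization, with loess and without probe sets that may match several transcripts, and 4 with the 30th percentile floor. Using a gene's median probe set value there were again 2, but Cyp2j5 (0.75) gave way to Cyp4f16 (1.01). At 1.5-fold, 3 were higher with the 70th percentile floor, and 2, Cyp2u1 (-0.64) and Cyp4a14 (-0.59), were lower without centring. Also without centring, 4 were higher, since the bound of Cyp7b1 came to 0.54, under 1.5-fold.

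Some medians moved by more than 0.208, the scaled median absolute deviation of all genes. The family 2 median was 0.086 with the 30th and 0.56 with the 70th percentile floor, 0.53 under the probe set median, 0.11 without probe sets that may match several transcripts, and 0.53 with probe sets naming several P450 genes (chosen after seeing the data). Under the probe set median, family 1 was -0.11, the other families 0.43, the adrenal medulla list 0.57 and the distal list 0.27. With the 30th percentile floor, the other families were 0.57, the adrenal cortex list 0.42 and the adrenal medulla list -0.081. With the 70th percentile floor, the adrenal medulla list was 0.0062 and the myeloid list 0.90. The myeloid list was 1.38 with no floor and 0.77 without probe sets that may match several transcripts, and the hepatocyte list 0.95 with no floor and 0.77 with the 25th percentile added. The cause was not tested. Over all genes 82 were 2-fold higher and 18 lower. These were 62 and 23 without centring, 319 and 163 with the 30th percentile floor, 26 and 5 with the 70th, 162 and 52 with no floor, 117 and 31 with the 25th percentile added, and 77 and 37 under the probe set median.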

Other observations

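A further 4 probe sets name several P450 genes at once and were outside the gene count above. The probe set of Cyp2a5 and Cyp2a4, which encode a coumarin hydroxylase and a testosterone hydroxylase, had 315 in HFD and 132 in Chow, 2.54-fold higher in HFD. That difference of 1.34 exceeds those of the P450 genes with a probe set of their own and a signal above the floor on both arrays. The probe set of Cyp4a31 and Cyp4a10 had 992 in HFD and 905 in Chow (0.21), close to the 0.16 of the Cyp4a31 probe set. That of Cyp4f37 and Cyp4f16 had 64.3 in HFD and 67.0 in Chow (0.026). The probe set of Cyp3a41a and Cyp3a41b was under the floor on both arrays, like the 5 family 3 genes with a probe set of their own.

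Cyp4f16 itself has a dimmer second probe set with 62.0 in HFD and 18.5 in Chow, at least 1.46-fold higher in HFD, whereas its brighter probe set differed by 0.18. Cyp20a1 likewise differed by 0.087 in its brighter probe set and by 0.43 in a dimmer one (200.1 in HFD and 158 in Chow).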
